A study of Homo sapiens with 6 samples.

Results

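The 10 genes described here make polyamines, break them down, or set how much of the first enzyme a cell keeps. They were chosen by name for these roles, at a time when earlier results of these data were known, and the choice used no threshold on their levels. *ODC1*, *AMD1*, *SRM* and *SMS* encode enzymes of synthesis. *SAT1* and *SMOX* encode enzymes of breakdown. *OAZ1* encodes an antizyme and *AZIN1* its inhibitor, and *MAT2A* and *MTAP* encode enzymes that supply and recycle methionine. All 10 were found by Ensembl identifier among the 20308 genes of the tables, and all 10 passed the filter on low values.

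Polyamines (putrescine, spermidine and spermine) are small positively charged molecules that bind nucleic acids and are needed for growth. Synthesis starts when ornithine decarboxylase makes putrescine from ornithine, and aminopropyl groups taken from decarboxylated S-adenosylmethionine then extend putrescine to spermidine and spermidine to spermine. Luminal cells of the prostate are known for making and secreting large amounts of polyamines, spermine above all, and several of the enzymes respond to androgen.

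The cells were LNCaP-AI, a line derived from the prostate cancer line LNCaP and labelled as castration-resistant prostate cancer (CRPC). The shMETTL1 group, with the genotype METTL1 knockdown, carried a stable lentiviral hairpin against *METTL1*, the catalytic subunit of a methyltransferase that places N7-methylguanosine on RNA. The shscramble group, with the genotype Control, carried a scrambled hairpin. Both groups had 3 libraries of total RNA, and the labels give both the treatment Androgen Deprivation Therapy. No library comes from cells without that label. The comparison rests on 1 cell line and on the 1 hairpin sequence the study lists for *METTL1*. The methods of the study speak in general of biological replicates, but neither they nor the labels tie these libraries to separate cultures, so the p-values cover only the spread among these libraries.

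*METTL1* itself (ENSG00000037897) was lower in all 3 knockdown libraries, with 13.9, 18.5 and 21.0 FPKM in shscramble replicates 1, 2 and 3 against 8.35, 10.5 and 8.18 FPKM in shMETTL1 replicates 1, 2 and 3. FPKM values count fragments per kilobase, relative to library depth. The shMETTL1 mean was 50.7% of the shscramble mean. *METTL1* missed the threshold by limma on FPKM (log2 fold change -0.93, SE 0.22, adjusted p = 0.127). It passed by edgeR on the estimated counts (-1.36, adjusted p = 0.0368, from 0.00476 to 0.364 over all fits). An exact two-sided permutation test reached p = 0.1, its lowest possible value with 3 libraries a group. All 11 luminal markers used were detected, and their summed level was 2470 to 2500 FPKM in shscramble and 1930 to 2190 FPKM in shMETTL1, with *KLK3*, *KLK2* and *FOLH1* among them. Among the luminal markers *KLK2*, an androgen-responsive kallikrein gene, fell by limma (log2 fold change -1.08, adjusted p = 0.0356). By edgeR *KLK2* (-1.23, adjusted p = 1.93e-05), *KLK3* (-0.64, adjusted p = 0.00319) and *TMPRSS2* (-0.64, adjusted p = 0.0305) fell, and DESeq2 also called *KRT18* higher (0.35, adjusted p = 0.0435). The 6 basal markers summed to 15.2 to 26.4 FPKM in shscramble and 15.6 to 17.9 FPKM in shMETTL1, with *KRT5* at 0. The 8 stromal markers summed to 9.64 to 16.0 and 10.4 to 16.3 FPKM, with *DCN* and *LUM* at 0. The 6 immune and endothelial markers used summed to 11.9 to 17.0 FPKM in shscramble and 6.16 to 8.24 FPKM in shMETTL1. Nearly all of that sum was *CD68*, while *PTPRC*, *CD3E* and *CDH5* were at 0 in all 6 libraries. The part of the lower luminal and *CD68* levels in the results that follow was not tested.

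Of the 10 genes, *ODC1* had the smallest adjusted p by both limma and edgeR. Its mRNA was 1.64-fold higher in shMETTL1 cells by FPKM and 1.57-fold higher by estimated counts, and it rose by the count test. *SRM* and *SMOX* had higher means in shMETTL1, *SAT1* had a lower mean, and for these the call depended on the fit or on 1 control library. *AMD1*, *SMS*, *OAZ1*, *AZIN1*, *MAT2A* and *MTAP* had overlapping groups. By limma on FPKM 0 of the 10 genes passed an adjusted p of 0.05, where 0.123% of 12156 genes passed, and 4 of the 10 had an unadjusted p under 0.05, where 14.2% did. By edgeR on the estimated counts 1 of the 10 passed, *ODC1*, where 6.33% of 11248 genes passed, and 3 had an unadjusted p under 0.05, where 22.8% did. DESeq2 on the same counts called 2, *ODC1* and *SRM*, where 6.19% of 11504 genes passed. The median log2 fold change of the 10 was 0.05 by limma and 0.06 by edgeR, and that of all genes tested was 0.02 and -6.74e-05. In bulk RNA a difference in the number of cells that make an mRNA and a difference in its amount per cell cannot be told apart.

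**Figure D1:**
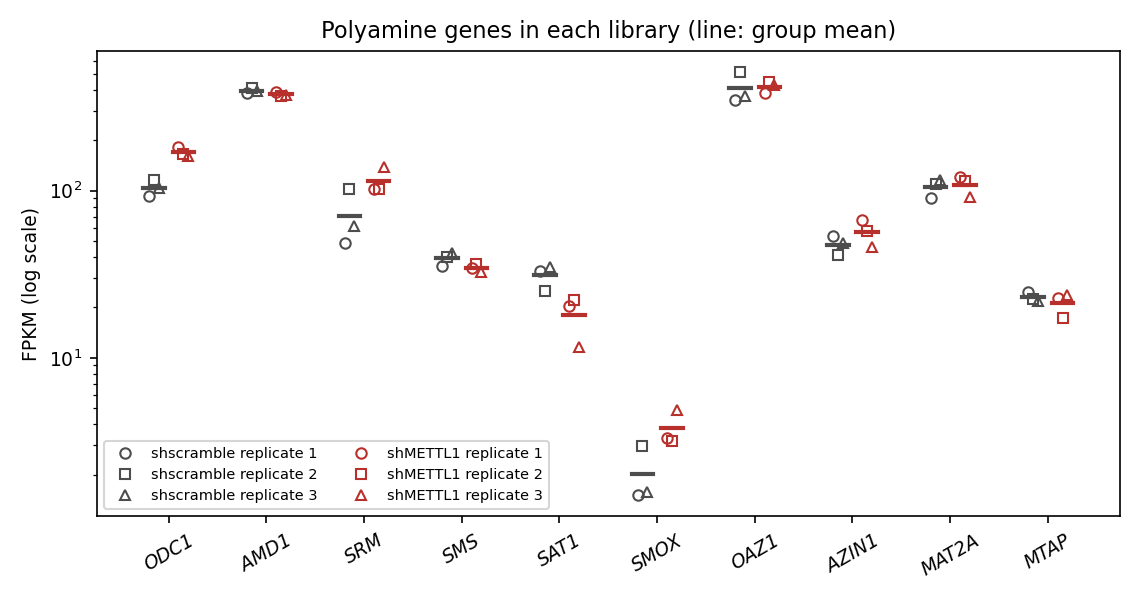
FPKM (log scale) of the 10 polyamine genes in each library, with shscramble in grey and shMETTL1 in red, a symbol for each replicate number and a line at the group mean. The groups do not overlap for *ODC1*, *SRM*, *SAT1* and *SMOX*, and shscramble replicate 2 (grey square) lies on the shMETTL1 side of its group for each of these 4.

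In both groups the antizyme and the *S*-adenosylmethionine decarboxylase had the most abundant mRNAs. In shscramble cells the order of the mean FPKM was *OAZ1* (409), *AMD1* (395), *MAT2A* (105), *ODC1* (104), *SRM* (70.4), *AZIN1* (47.6), *SMS* (39.3), *SAT1* (31.1), *MTAP* (23.0) and *SMOX* (2.0). The ranges of neighbouring genes overlapped from *MAT2A* down to *SMS*, and for *OAZ1* and *AMD1*, and they did not overlap at the steps from *AMD1* to *MAT2A*, *SMS* to *SAT1*, *SAT1* to *MTAP* and *MTAP* to *SMOX*. *OAZ1* and *AMD1* were each above 98.9% of the genes tested, and *SMOX* was above only 10.9%. In shMETTL1 cells *ODC1* (171 FPKM) and then *SRM* (114 FPKM) stood ahead of *MAT2A* (108 FPKM), while *SAT1* (18.0 FPKM) stood below *MTAP* (21.3 FPKM). The ranges of *SRM* and *MAT2A* and those of *MTAP* and *SAT1* overlapped there, so these new places are not separated beyond the spread of the libraries, whereas every *ODC1* value exceeded every *SRM* and *MAT2A* value.

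*ODC1* encodes ornithine decarboxylase, the rate-limiting enzyme at the entry of the pathway (ENSG00000115758; GRCh38 chromosome 2, 10439968 to 10448504, minus strand). It had 92.5, 116 and 104 FPKM in shscramble replicates 1, 2 and 3, and 184, 167 and 162 FPKM in shMETTL1 replicates 1, 2 and 3. The estimated counts were 759, 984 and 813 in shscramble and 1482, 1339 and 1324 in shMETTL1. Every shMETTL1 library was above every shscramble library on both scales, and shscramble replicate 2 was the highest control. Group means were 104 ± 11.8 FPKM in shscramble and 171 ± 11.4 FPKM in shMETTL1 (SD, n = 3 each). By limma the log2 fold change was 0.71 (SE 0.14, 95% interval 0.41 to 1.02), with an unadjusted p of 0.000517 and an adjusted p of 0.0827, just short of the threshold. By edgeR the log2 fold change was 0.65 with an adjusted p of 0.0024. The edgeR call was kept when any 1 of the 6 libraries was left out (log2 fold change 0.60 to 0.72, adjusted p from 8.51e-05 to 0.0314), and limma called *ODC1* without shscramble replicate 2 (0.80, adjusted p = 0.0336, from 0.0336 to 0.282 over the alternatives on FPKM). Limma on log2 CPM from the estimated counts also called it with all 6 libraries (log2 fold change 0.66, adjusted p = 0.00147).

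*AMD1* encodes the *S*-adenosylmethionine decarboxylase that provides the aminopropyl groups (ENSG00000123505; GRCh38 chromosome 6, 110874770 to 110895713, plus strand). *AMD1*, *SRM* and *MTAP* have annotated pseudogenes, and reads shared with such copies could be assigned to either. *AMD1* had 385, 409 and 392 FPKM in shscramble and 388, 368 and 376 FPKM in shMETTL1. The groups overlapped, and the spread was the smallest of the 10 genes in both groups, with an SD of 3.15% of the mean in shscramble and 2.67% in shMETTL1. Limma gave a log2 fold change of -0.07 (SE 0.11, 95% interval -0.32 to 0.19, adjusted p = 0.822). By edgeR it was -0.09 with an adjusted p of 0.666. The interval leaves out a rise of the size measured for *ODC1*.

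*SRM*, spermidine synthase, adds the first aminopropyl group (ENSG00000116649; GRCh38 chromosome 1, 11054584 to 11060024, minus strand). It had 48.6, 101.6 and 61.0 FPKM in shscramble and 101.7, 102.6 and 137.7 FPKM in shMETTL1. The groups were apart by FPKM only because shscramble replicate 2 lay just under the lowest shMETTL1 library. By estimated counts they overlapped, with 218, 463 and 278 in shscramble and 457, 465 and 622 in shMETTL1. The shscramble mean was 70.4 ± 27.7 FPKM and the shMETTL1 mean 114 ± 20.5 FPKM (SD, n = 3 each), and the shscramble SD was 39.4% of its mean. The log2 fold change was 0.75 by limma (SE 0.26, 95% interval 0.17 to 1.32, adjusted p = 0.255) and 0.65 by edgeR (adjusted p = 0.0557). DESeq2 called *SRM* higher (0.66, adjusted p = 0.025). Without shscramble replicate 2 *SRM* was called by limma (log2 fold change 1.04, adjusted p = 0.043) and by edgeR (0.96, adjusted p = 0.000254), and over all fits its adjusted p ran from 0.000254 to 0.491.

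*SMS*, spermine synthase, adds the second aminopropyl group (ENSG00000102172; GRCh38 chromosome X, 21940573 to 21994835, plus strand). It had 35.5, 40.2 and 42.1 FPKM in shscramble and 34.5, 36.5 and 32.5 FPKM in shMETTL1. The shMETTL1 values lay in the lower part of the shscramble range or under it, and the groups overlapped. Log2 fold changes were -0.18 by limma (SE 0.15, 95% interval -0.51 to 0.15, adjusted p = 0.606) and -0.24 by edgeR (adjusted p = 0.277). The sign was negative in every fit, from -0.27 to -0.13, and no fit called it.

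The windows around the annotated start sites were searched for motifs to see what the synthesis genes share in sequence. The table of RefSeq windows (GRCh38.p14, 250 bases before and 50 after a start) held 11 windows for 8 of the 10 genes, and none for *SMOX* or *AZIN1*. The E-box CACGTG, the letters bound by MYC, MAX and related factors, was found in 2 of these 11 windows, 1 of *ODC1* and 1 of *SRM*, and in 7.26% of all 35116 windows. The GC box GGGCGG was found in 10 of the 11 and in 45.0% of all windows, the TATA box TATAAA in 3 (*MAT2A*, *MTAP* and *OAZ1*) and in 11.5% of all windows, and the element TGACGTCA in 0 and in 1.85% of all windows. *ODC1* and *AMD1* have more than 1 window each and so more chances of a match. Both strands were searched. CACGTG and TGACGTCA read the same on both strands and share the letters ACGT. The E-boxes are shown because *ODC1* and *SRM* are the 2 genes that DESeq2 called, so this match comes from the choice and is not a result. They are printed with CACGTG in capitals and 12 bases on each side, 5′ to 3′ on the gene's strand.
SRM, 199 bases before the RefSeq start (chr1:11060200-11060229, minus strand): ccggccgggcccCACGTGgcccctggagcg
ODC1, first E-box (chr2:10448024-10448053, minus strand): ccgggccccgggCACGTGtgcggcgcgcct
ODC1, second E-box (chr2:10447990-10448019, minus strand): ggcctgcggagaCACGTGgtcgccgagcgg
The *SRM* element lies upstream of the gene. The *ODC1* elements lie 463 and 497 bases inside the gene as GENCODE annotates it, in an intron, and flank the second of 2 RefSeq starts, 29 bases before it and at base 6 after it. A match describes the letters of a window. No binding was measured in these libraries.

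*SAT1* encodes the acetyltransferase that marks spermidine and spermine for export or oxidation (ENSG00000130066; GRCh38 chromosome X, 23783173 to 23786226, plus strand). It had 33.1, 24.9 and 35.1 FPKM in shscramble and 20.3, 22.1 and 11.6 FPKM in shMETTL1. The estimated counts were 107, 86.8 and 110 in shscramble and 69.4, 74.0 and 41.1 in shMETTL1. Every shMETTL1 library was below every shscramble library on both scales, with shMETTL1 replicate 3 far under the rest and shscramble replicate 2 the lowest control. Mean levels were 31.1 ± 5.4 FPKM in shscramble and 18.0 ± 5.6 FPKM in shMETTL1 (SD, n = 3 each), so the shMETTL1 mean was 57.9% of the shscramble mean. The log2 fold change was -0.81 by limma (SE 0.26, 95% interval -1.39 to -0.23, adjusted p = 0.228) and -0.78 by edgeR (adjusted p = 0.0557), which does not pass. *SAT1* was called by edgeR without shscramble replicate 2 (-0.92, adjusted p = 0.0106), and over all fits its adjusted p ran from 0.0106 to 0.47.

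*SMOX* encodes spermine oxidase, which turns spermine back into spermidine (ENSG00000088826; GRCh38 chromosome 20, 4120980 to 4187747, plus strand). It had 1.50, 2.94 and 1.57 FPKM in shscramble and 3.30, 3.17 and 4.90 FPKM in shMETTL1. The estimated counts were 8.41, 26.1 and 7.45 in shscramble and 25.8, 19.0 and 24.4 in shMETTL1. The groups were apart by FPKM, while by counts shscramble replicate 2 had the highest value of all 6 libraries. For this gene the count that stands for 1 FPKM ran from 4.75 to 8.85 between libraries, a ratio of 1.86, where the other 9 genes had ratios of 1.02 to 1.32. The log2 fold change was 0.80 by limma (SE 0.34, 95% interval 0.03 to 1.57, adjusted p = 0.343) and 0.71 by edgeR (adjusted p = 0.387). Without shscramble replicate 2 edgeR gave 1.50 with an adjusted p of 0.0477, against 0.0477 to 0.73 over its alternatives, on fewer than 30 counts in any library.

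**Figure D2:**
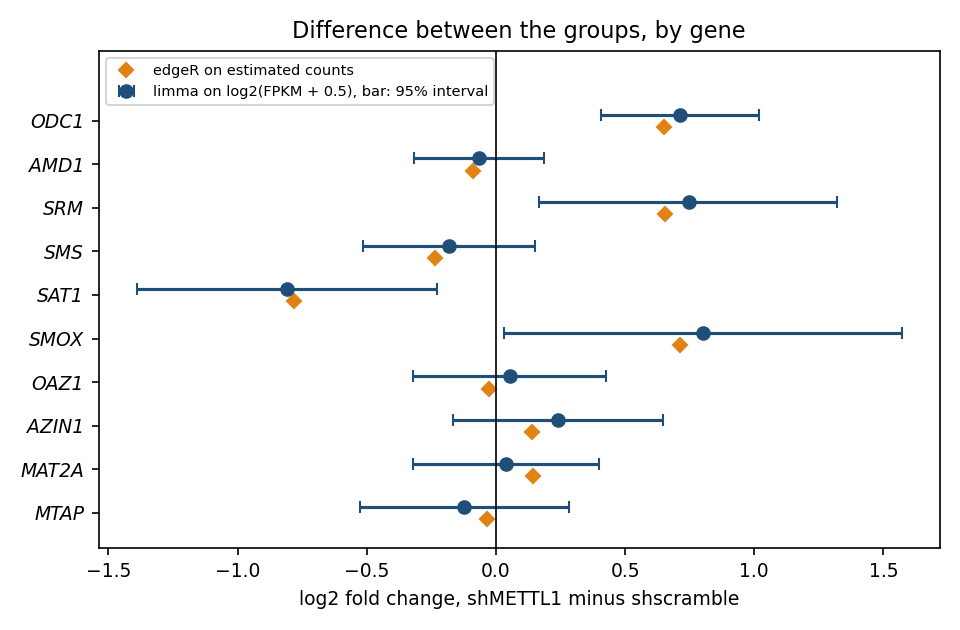
Log2 fold change of each gene, shMETTL1 minus shscramble, by limma on log2(FPKM + 0.5) with its 95% interval (blue) and by edgeR on estimated counts (orange). The limma intervals of *ODC1*, *SRM*, *SAT1* and *SMOX* leave out 0 before adjustment for 12156 genes, and those of the other 6 genes include it.

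*OAZ1* encodes antizyme 1, which binds ornithine decarboxylase and sends it to the proteasome (ENSG00000104904; GRCh38 chromosome 19, 2269509 to 2273490, plus strand). It had 347, 513 and 368 FPKM in shscramble and 382, 448 and 428 FPKM in shMETTL1, and all shMETTL1 values lay inside the shscramble range. Its log2 fold change was 0.05 by limma (SE 0.17, 95% interval -0.32 to 0.43, adjusted p = 0.912) and -0.03 by edgeR (adjusted p = 0.918). Its sign depended on the fit, and no fit called it. The amount of antizyme protein is set mainly in translation, since ribosomes must shift frame at an early stop codon, which polyamines promote, and mRNA levels do not measure that step. The site is shown for *OAZ1* and its relative *OAZ2*, with the stop codon of the first frame in capitals, as GENCODE transcripts (GRCh38) give it.
OAZ1 (chr19:2271428-2271457, plus strand): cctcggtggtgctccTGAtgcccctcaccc
OAZ2 (chr15:64691501-64691530, minus strand): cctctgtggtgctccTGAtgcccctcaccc
The 2 stretches share 29 of 30 bases, and in both the annotated coding sequence skips the T of this stop codon. *JSRP1* overlaps *OAZ1* on the other strand and had at most 3.47 estimated counts.

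*AZIN1* encodes the antizyme inhibitor, a relative of ornithine decarboxylase without its activity that takes antizyme away from the enzyme (ENSG00000155096; GRCh38 chromosome 8, 102826357 to 102893864, minus strand). It had 53.3, 41.0 and 48.5 FPKM in shscramble and 66.9, 57.2 and 46.0 FPKM in shMETTL1. The 2 highest values were shMETTL1 replicates 1 and 2, while shMETTL1 replicate 3 lay within the shscramble range. Log2 fold changes were 0.24 by limma (SE 0.18, 95% interval -0.17 to 0.65, adjusted p = 0.571) and 0.14 by edgeR (adjusted p = 0.622). *AZIN1-AS1*, on the other strand, had at most 6.34 estimated counts.

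*MAT2A* encodes the catalytic subunit of the methionine adenosyltransferase that makes *S*-adenosylmethionine outside the liver (ENSG00000168906; GRCh38 chromosome 2, 85539165 to 85545280, plus strand). It had 90.5, 110 and 116 FPKM in shscramble and 120, 114 and 91.0 FPKM in shMETTL1. The groups shared nearly the whole range. The log2 fold change was 0.04 by limma (SE 0.16, 95% interval -0.32 to 0.40, adjusted p = 0.937) and 0.14 by edgeR (adjusted p = 0.516). *GGCX* overlaps *MAT2A* on the other strand with 95.9 to 141 estimated counts, against 787 to 1104 for *MAT2A*, and whether the libraries kept strand is not given in the sources used here.

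*MTAP* cleaves methylthioadenosine, the by-product of spermidine and spermine synthesis, and so returns methionine (ENSG00000099810; GRCh38 chromosome 9, 21802543 to 21937651, plus strand). The gene is often deleted in tumours, and its mRNA was present in all 6 libraries. It had 24.9, 22.4 and 21.9 FPKM in shscramble and 22.7, 17.4 and 23.9 FPKM in shMETTL1, with shMETTL1 replicate 2 the lowest. The difference on the log2 scale was -0.12 by limma (SE 0.18, 95% interval -0.53 to 0.28, adjusted p = 0.788) and -0.04 by edgeR (adjusted p = 0.911). Neither *MAT2A* nor *MTAP* passed in any fit.

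Over the 10 genes 4 had FPKM groups that did not overlap, where 19.8% of all genes tested had such groups. In 3 of them, *ODC1*, *SRM* and *SMOX*, shMETTL1 was higher, and in 1, *SAT1*, it was lower, where these shares were 10.5% and 9.33% of all genes tested. By estimated counts the groups of 2, *ODC1* and *SAT1*, did not overlap, where 26.0% of genes tested by edgeR had such non-overlapping groups. The control library nearest to the shMETTL1 mean was shscramble replicate 2 for 5 of the 10 genes, *ODC1*, *SRM*, *SAT1*, *SMOX* and *MAT2A*, and for 43.7% of all genes tested. Leaving it out raised the share of genes called from 0.123% to 1.56% by limma and from 6.33% to 17.5% by edgeR, and raised the count among the 10 from 0 to 2 by limma (*ODC1* and *SRM*) and from 1 to 4 by edgeR (*ODC1*, *SRM*, *SMOX* and *SAT1*). The direction of these 4 genes was the same with any 1 library left out.

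**Figure D3:**
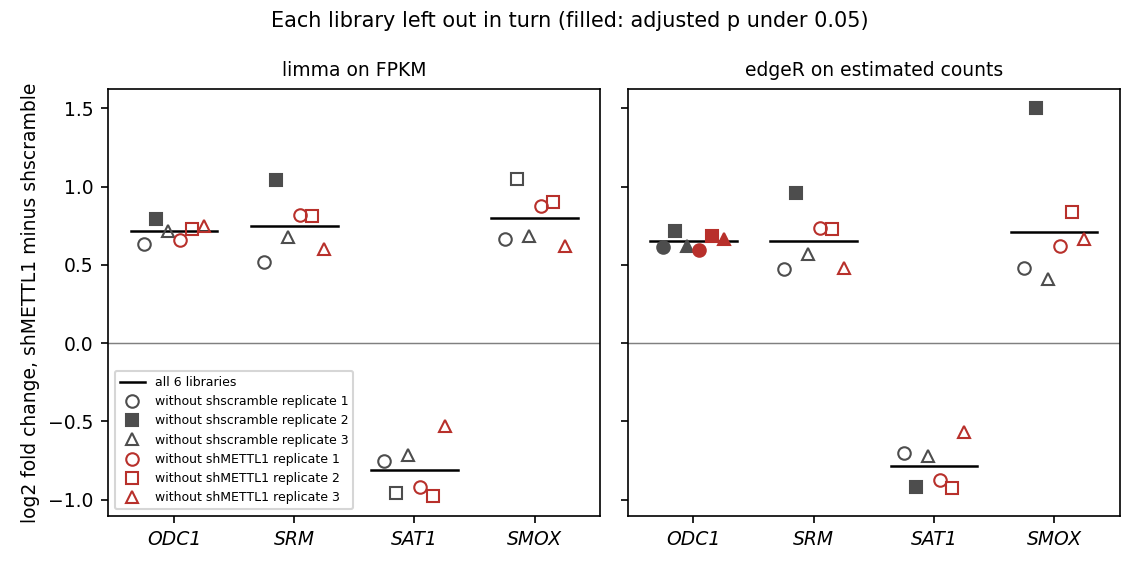
Log2 fold change of *ODC1*, *SRM*, *SAT1* and *SMOX* with all 6 libraries (line) and with each library left out (symbols; grey for a control, red for a knockdown library, filled where the adjusted p was under 0.05), by limma on FPKM and by edgeR on estimated counts. *ODC1* stays between 0.60 and 0.80 in both panels, while *SRM* reaches 1.04 by limma and *SMOX* 1.50 by edgeR without shscramble replicate 2.

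Ratios of 2 genes within a library do not depend on its depth, and they are given as descriptions with no test, for pairs chosen with the values in view. The ratio of *ODC1* to *AMD1*, the decarboxylases that feed the pathway, was 0.241, 0.284 and 0.265 in shscramble and 0.473, 0.453 and 0.431 in shMETTL1. The means were 0.263 ± 0.022 and 0.452 ± 0.021 (SD, n = 3 each), a change of 1.72-fold with a wide gap between the groups. The ratio of *ODC1* to *OAZ1*, the enzyme's mRNA against that of its antizyme, was 0.259 ± 0.029 in shscramble and 0.411 ± 0.061 in shMETTL1, again with no overlap. The ratio of *SRM* to *SMS*, the aminopropyl transferases, was 1.37, 2.53 and 1.45 in shscramble and 2.95, 2.81 and 4.23 in shMETTL1. These groups did not overlap either, and shscramble replicate 2 was the highest control, close under shMETTL1 replicates 1 and 2. The ratio of *SAT1* to *SRM*, breakdown against synthesis of spermidine, was 0.681, 0.245 and 0.575 in shscramble and 0.20, 0.215 and 0.084 in shMETTL1. Its mean was 3.01-fold lower in shMETTL1, with shscramble replicate 2 close above shMETTL1 replicate 2. Every ratio whose groups did not overlap holds *ODC1*, *SRM* or *SAT1*, whose own FPKM groups were already apart. No share of such ratios over other gene pairs was computed. The ratios of *AZIN1* to *OAZ1* (0.122 ± 0.038 and 0.137 ± 0.035) and of *SMS* to *AMD1* (0.099 ± 0.008 and 0.092 ± 0.007) overlapped between the groups.

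**Figure D4:**
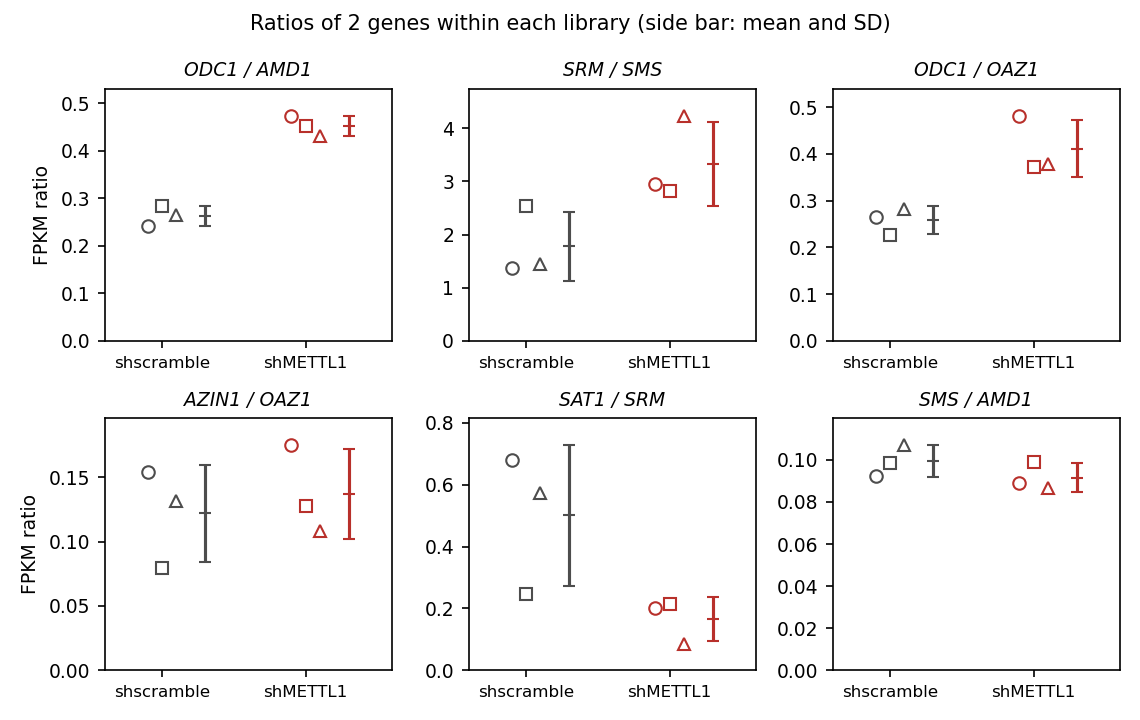
FPKM ratios of 6 pairs of polyamine genes within each library (symbols by replicate number), with the mean and SD of 3 libraries beside them; all axes start at 0. The ratios of *ODC1* to *AMD1* average 0.263 in shscramble and 0.452 in shMETTL1, and those of *AZIN1* to *OAZ1* and *SMS* to *AMD1* overlap.

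A further 45 genes of the wider pathway had rows in the tables, in 7 lists. They cover relatives of the antizymes and of the breakdown enzymes, hypusine synthesis, transport, arginine and ornithine supply, the methionine cycle and methionine salvage. Of these 6 were at 0 in all libraries, 35 were tested by limma and 30 by edgeR. By limma 0 of 35 passed, where 0.123% of 12156 genes passed. An unadjusted p under 0.05 by limma was found for 3 higher and 1 lower. Over all 12156 genes 14.2% had one, 896 higher and 827 lower. By edgeR 3 of 30 rose and 1 fell, where 2.68% of all genes tested rose and 3.65% fell. The median log2 fold change of these genes was 0.07 by limma and 0.09 by edgeR, beside 0.02 and -6.74e-05 for all genes tested.

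Of the 3 genes that rose, 2 are on the arginine and ornithine list, where edgeR tested 7, and 1 is on the transport list. *SLC7A1*, a transporter of arginine and other cationic amino acids, had 40.3, 53.7 and 45.7 FPKM in shscramble and 68.7, 69.4 and 67.4 FPKM in shMETTL1. Its groups did not overlap and its log2 fold change was 0.52 by edgeR (adjusted p = 0.00966) and 0.56 by limma (adjusted p = 0.175). *ARG2*, the mitochondrial arginase that makes ornithine from arginine, had 12.6, 11.4 and 11.3 FPKM in shscramble and 17.9, 19.9 and 20.7 FPKM in shMETTL1. Both groups were tight and apart, and the log2 fold change was 0.65 by edgeR (adjusted p = 0.0326) and 0.70 by limma (adjusted p = 0.137). *SLC3A2*, the heavy chain shared by several amino acid transporters and linked to polyamine movement, had 86.6, 147 and 126 FPKM in shscramble and 186, 219 and 164 FPKM in shMETTL1. Its log2 fold change was 0.56 by edgeR (adjusted p = 0.0299) and 0.69 by limma (adjusted p = 0.198). Some other genes of the arginine and ornithine list had lower FPKM in every shMETTL1 library without passing, and they are named after their values were seen. *OAT*, which interconverts ornithine and glutamate semialdehyde, had 5.28, 8.07 and 8.96 FPKM in shscramble and 4.59, 3.72 and 4.16 FPKM in shMETTL1 (log2 fold change -0.74, adjusted p = 0.274 by limma; -0.86, adjusted p = 0.156 by edgeR). *ASL*, of arginine synthesis, gave -0.52 (adjusted p = 0.357) and *GATM*, which uses arginine to make a creatine precursor, -0.52 (adjusted p = 0.542), both by limma. By estimated counts the groups of *OAT*, *ASL* and *GATM* overlapped. *GATM* had only 3.91 to 8.46 estimated counts and was not tested by edgeR. *ALDH18A1*, on the same list, was higher in every shMETTL1 library without passing (log2 fold change 0.27, adjusted p = 0.485 by limma). Non-overlapping FPKM with shMETTL1 lower was found in 9.33% of all genes tested, and with shMETTL1 higher in 10.5%.

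*ATP13A3*, a transport ATPase linked to polyamine uptake, fell by edgeR (log2 fold change -0.46, adjusted p = 0.0299). Its estimated counts were 627, 680 and 682 in shscramble and 549, 535 and 415 in shMETTL1, with no overlap. By FPKM the groups overlapped (30.1, 62.1 and 41.8 in shscramble, 41.7, 45.3 and 24.6 in shMETTL1), and limma gave -0.25 with an adjusted p of 0.738. Over the edgeR alternatives the adjusted p ran from 0.000217 to 0.0725 for *SLC7A1*, from 0.0169 to 0.141 for *ARG2*, from 0.000133 to 0.162 for *SLC3A2* and from 0.00743 to 0.142 for *ATP13A3*. Without shscramble replicate 3 edgeR called 0 of these 4. DESeq2 also called *SLC22A3*, an organic cation transporter that the low-value filters of limma and edgeR left out and that is named after its values were seen. Its estimated counts were below 1 in all shscramble libraries and 19.0, 2.28 and 22.5 in shMETTL1 (adjusted p = 0.00127 by DESeq2), and no fold is given against controls near 0.

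In the other 5 lists no gene passed either test. The gene of each list with the smallest unadjusted p by limma was, for the antizymes, breakdown and hypusine, *OAZ2*, a second antizyme (log2 fold change -0.07, adjusted p = 0.874), *PAOX*, which oxidises acetylated polyamines (0.51, adjusted p = 0.718, at 1.23 and 1.55 FPKM on average), and *DOHH*, which completes the hypusine residue made from spermidine (0.46, adjusted p = 0.441). For the methionine cycle and salvage it was *MAT2B*, the regulatory partner of *MAT2A* (0.32, adjusted p = 0.502), and *ADI1*, an enzyme of methionine salvage (0.28, adjusted p = 0.451), all by limma. *DOHH* had 4.98, 4.69 and 4.97 FPKM in shscramble and 6.41, 5.59 and 9.12 FPKM in shMETTL1, and *ADI1* had 25.9, 24.6 and 26.9 FPKM in shscramble and 29.4, 35.0 and 29.8 FPKM in shMETTL1. The groups of these 2 did not overlap, with shMETTL1 higher, although neither passed. Such groups were found in 10.5% of all genes tested.

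**Figure D5:**
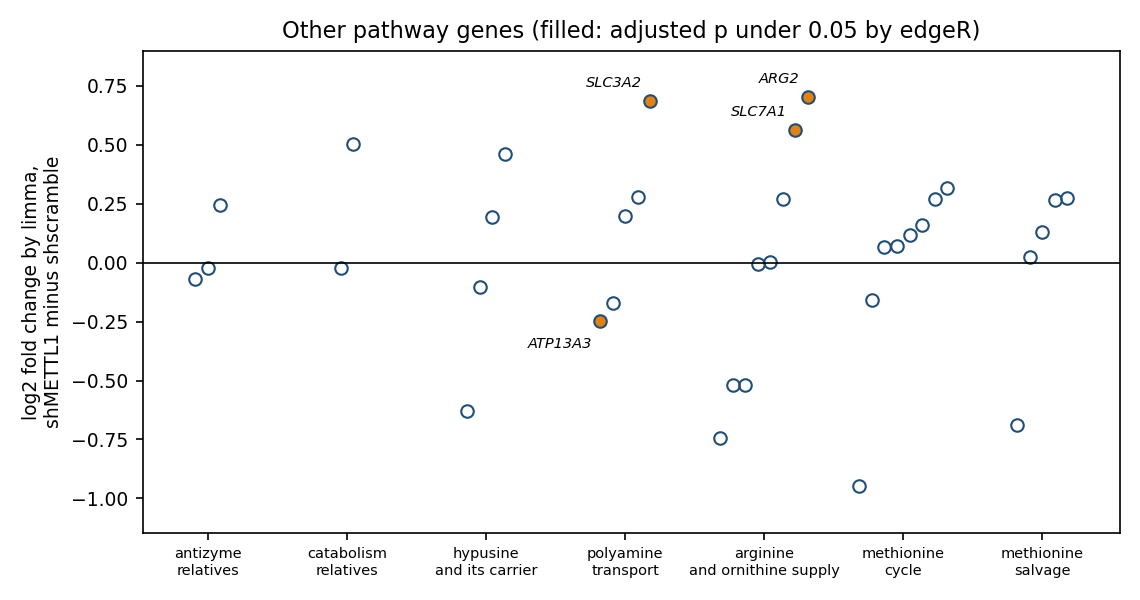
Log2 fold change by limma, shMETTL1 minus shscramble, of the 35 other pathway genes tested, by list, with the 4 genes that edgeR called filled and named. *SLC3A2*, *ARG2* and *SLC7A1* lie between 0.56 and 0.70, *ATP13A3* at -0.25.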

How the data were processed

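Total RNA of 6 LNCaP-AI libraries (3 shMETTL1, 3 shscramble) was sequenced. Tools listed in the submitters' processing notes are cutadapt (1.9.3), HISAT2 (2.0.4), Cufflinks and Cuffdiff, on hg19, without their roles. The authors deposited FPKM values, scaled to transcript length and mapped fragments, for each gene. Beside them the authors deposited estimated counts that are mostly fractional. These total 3389897 to 3604835 per library and may have been rescaled, so the reads behind a value are unknown and no counting interval is given. Gene positions and sequences are from GRCh38 (GENCODE 29, RefSeq GRCh38.p14), not the build of the files, and only identify genes and sequences.

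The genes averaging 0.5 FPKM or more were tested on log2(FPKM + 0.5) with limma 3.58.1 (trend, robust; R 4.3.3), shMETTL1 against shscramble, unpaired. These fold changes understate those of low genes. The estimated counts were rounded and tested with edgeR 4.0.16 (quasi-likelihood, TMM) and DESeq2 1.42.0. Two-sided p-values were adjusted over all genes tested (Benjamini-Hochberg), with a threshold of 0.05. The fits were tested on simulated data with the same dispersion for every gene and a fixed count per FPKM for each gene. These libraries lack that fixed ratio, so the simulation does not show how the fits behave on them. All 10 polyamine genes and *METTL1* are named; of the other pathway genes, those that limma or edgeR called and the 1 with the smallest limma p in each list; of the markers, ranges and defining genes. Members and lists were chosen with earlier results of these data known. Alternatives were other pseudocounts, filters, scalings, the replicate number as a block, and each library left out. The alternatives for *METTL1*, and those of edgeR for all genes and for the other pathway genes, were added after seeing the data. Some markers of the cell type lists are not reported here.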

Additional observations from a re-analysis of the deposited data

How the results depend on the processing

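Of the 10 polyamine genes, limma on FPKM called 0 under every pseudocount, filter and scaling tried, 0 to 2 with 1 library left out, and 1 on log2 CPM; edgeR called 1 and DESeq2 2. With edgeR as the base, no filter on low counts gave 3, DESeq2 2, and leaving out 1 library 1 to 4. Libraries that share a replicate number deviated from their group means with correlations of only -0.024 to 0.053, and 2 of 6 correlated best with their own number. The replicate block gave 0 by limma and 3 by edgeR (*ODC1*, *SRM* and *SAT1*), and took all genes called from 15 to 6 by limma and from 712 to 1015 by edgeR. Over all genes limma called 15, 4 with no filter, 3 to 189 with 1 library left out, and 726 on log2 CPM, while edgeR and DESeq2 each called 712. By edgeR the count was 1094 with no filter and 270 to 1989 with 1 library left out. Of the other pathway genes limma called 0 under each of its FPKM alternatives, 4 on log2 CPM, edgeR 4, DESeq2 5, and edgeR with 1 library left out 0 to 6. *METTL1* had a log2 fold change of -1.36 by edgeR, -1.37 by DESeq2 and -1.35 by limma on log2 CPM, each past the threshold, and -1.09 to -0.80 by limma with 1 library left out. The sign turned for *OAZ1* (limma -0.055 to 0.23 with 1 library left out and -0.017 on log2 CPM, edgeR -0.027, DESeq2 -0.024; edgeR -0.079 to 0.066 with 1 left out), *MAT2A* (limma -0.066 to 0.16 with 1 left out) and *MTAP* (limma -0.21 to 0.015 and edgeR -0.14 to 0.067 with 1 left out). The cause of these differences was not tested. *METTL1*, *SMOX* and *SAT1* rest on few counts, and protein, enzyme activity and polyamine amounts were not measured here.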
